A study of Mus musculus with 8 samples.

Results

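Hepatic stellate cells of rodents carry several proteins better known from muscle and from the nervous system, and 7 genes that encode them were followed here: Gfap, Des, Vim, Nes and Synm, which encode intermediate filament proteins, and Ncam1 and Ngfr, which encode cell surface proteins. They were taken by symbol and make up 7 of the 22180 genes that the array measured with a probe set of 1 gene symbol. Vim alone had more than 1 such probe set, and the brighter of its 2 sets over the 8 arrays stands for it.

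RNA of primary hepatic stellate cells from BALB/c mice was hybridised to 8 Affymetrix arrays, with 2 arrays for each of 4 groups. The groups were cells kept for 10 days on plastic, cells isolated from fibrotic mice after 2 weeks of carbon tetrachloride (CCl4), a liver toxin, cells isolated after 4 weeks of CCl4, and quiescent cells of healthy mice, taken at 0 hours. The titles of the CCl4 and quiescent samples name no days of culture. Valproic acid (2.5 mM, started after seeding) appears in a protocol attached to all 8 samples but in no title or treatment label, so it cannot be said here whether any of the cells were exposed to it. Nothing in the labels ties the 2 arrays of a group to different animals or cultures. The p-values below therefore reflect the spread between these samples alone, which may be technical.

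Intermediate filaments are the tough, ropelike part of the cytoskeleton, and their protein makeup differs between cell types. Desmin and GFAP, the filament proteins of muscle and of astrocytes, have long been used to recognise rodent stellate cells, and vimentin is the filament protein of mesenchymal cells in general. Nestin and synemin are large filament proteins that assemble together with vimentin or desmin, nestin being best known from neural progenitor cells. NCAM, the product of Ncam1, is an adhesion molecule of neurons, and p75NTR, the product of Ngfr, is a receptor that binds all neurotrophins, the growth factors of neurons.

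Levels are log2 RMA units, in which a difference of 1 is a doubling, and are compared between groups for the same gene only. Each change is a log2 fold change ± its standard error (SE) in a limma fit of all 8 arrays, with p adjusted over 22180 genes by the Benjamini-Hochberg method. Genes with an adjusted p under 0.05 count as called. The 3 comparisons with quiescent cells share the same 2 quiescent arrays. As a guide to background, 95% of the values of olfactory and vomeronasal receptor genes, which liver cells are not known to use, lay at or below 4.76. A fold counted against the guide puts the guide in place of lower values in the dimmer group. Such a fold leaves out the spread between arrays.

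**Figure D1:**
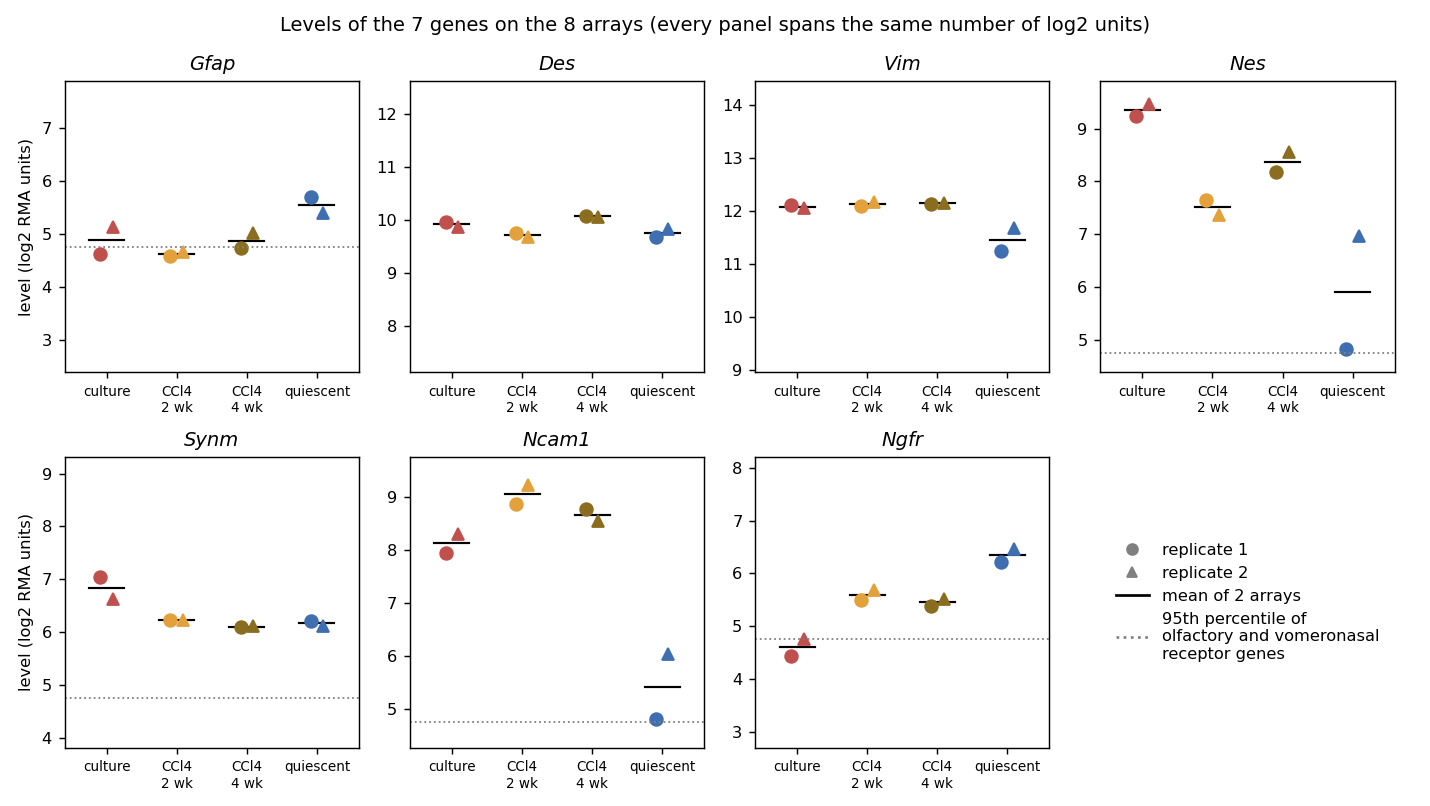
Level (log2 RMA units) of the 7 genes on each of the 8 arrays, 1 panel a gene, with circles for replicate 1, triangles for replicate 2, a black line for the mean of 2 arrays and a dotted line at the background guide of 4.76. Nes and Ncam1 lie lowest on the quiescent arrays and differ most between those 2 arrays, Ngfr lies lowest in culture, and Des lies between 9.67 and 10.08 on all arrays.

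In culture, 4 of the 7 genes rose (Nes, Ncam1, Vim and Synm) and 2 fell (Ngfr and Gfap), beside 23.2% of all genes called in that comparison, 12.9% higher and 10.3% lower. After 2 weeks of CCl4, Ncam1 rose and Ngfr and Gfap fell, beside 4.77% of all genes called, 2.34% higher and 2.43% lower. After 4 weeks, Ncam1, Nes and Vim rose and Ngfr fell, beside 8.71% of all genes called, 4.04% higher and 4.67% lower. Ncam1 and Ngfr were the members called in each of the 3 comparisons with quiescent cells, in opposite directions. Des was called in none of them.

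Ncam1 had levels of 7.95 and 8.31 in culture, 8.88 and 9.23 after 2 weeks of CCl4 and 8.77 and 8.55 after 4 weeks, against 4.81 and 6.04 in quiescent cells. Every activated array lay above both quiescent arrays. Ncam1 rose by 2.71 ± 0.35 in culture (6.53-fold, adjusted p = 0.000569, limma), by 3.63 ± 0.35 after 2 weeks of CCl4 (12.4-fold, adjusted p = 0.000875) and by 3.24 ± 0.35 after 4 weeks (9.45-fold, adjusted p = 0.000927). Ordered by log2 fold change from the highest of 22180 genes, Ncam1 held place 10 after 2 weeks of CCl4, place 21 after 4 weeks and place 148 in culture. The quiescent arrays differed by 1.23 for this gene, a gap at percentile 98.6 of all genes, and replicate 1 lay just above the background guide. Against quiescent replicate 2 alone, the changes were 2.09 in culture, 3.02 at 2 weeks and 2.62 at 4 weeks, and against quiescent replicate 1 alone 3.32, 4.25 and 3.86. All 3 calls were kept when any single array was left out. In bulk RNA, more cells of a type and more RNA per cell cannot be told apart.

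The order of the Ncam1 group means ran from 2-week CCl4 through 4-week CCl4 and culture down to quiescent cells. The arrays of neighbouring groups did not overlap, but only the last step passed the test: the 2 CCl4 times differed with adjusted p = 0.861, and culture differed from 4-week CCl4 with adjusted p = 0.394. Natural killer cells also carry NCAM in humans. Of 11 measured lymphocyte and natural killer markers, 0 were called after 2 or 4 weeks of CCl4 and 1, Ptprc, fell in culture. Of all genes, 4.77% were called at 2 weeks, 8.71% at 4 weeks and 23.2% in culture. On all 8 arrays 7 of the 11 were below the background guide, among them Ncr1, Klrb1c, Gzma and Eomes, while Cd3e, Nkg7 and Ptprc were above it on all 8. Bile duct cells were checked as well. Of 8 measured cholangiocyte markers, 0 were called at either CCl4 time, and in culture 1 rose, Krt19, and Sox9 and Muc1 fell. The shares of all genes called are those given above. The Sox9 call was lost in 7 of 8 fits without 1 array, with changes from -0.79 to -0.36. The Muc1 call was lost without culture replicate 1, where the change was -0.49. On all 8 arrays 4 of the 8 were below the guide, among them Epcam, and Krt19 and Sox9 were above it. The part of these cells in the Ncam1 values was not tested.

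Genes that act with NCAM were also examined. Of 16 measured genes of NCAM signalling and neural adhesion, 1 rose and 1 fell in culture, beside 23.2% of all genes called, and 0 were called at either CCl4 time, beside 4.77% at 2 weeks and 8.71% at 4 weeks. Their median log2 fold changes in culture, at 2 weeks and at 4 weeks were 0.03, 0.02 and 0.07, beside 0.01, 0.0040 and -0.0019 over all genes. Nrcam, a related adhesion gene of neurons, had levels of 4.92 and 5.10 in culture, against 3.39 and 3.33 in quiescent cells, a difference of 1.65 ± 0.13 (adjusted p = 4.26e-05). It exceeded the background guide on the culture arrays alone, and counted against the guide it was 1.2-fold higher in culture. Alcam, an adhesion gene of the same superfamily, had levels of 7.40 and 7.09 in culture, against 9.30 and 9.86 in quiescent cells, and fell by 2.33 ± 0.24 (adjusted p = 0.000161). St8sia2 and St8sia4, which attach polysialic acid to NCAM, and the paralog Ncam2 were called in none of the 3 comparisons, and St8sia4 and Ncam2 were above the guide on 0 of 8 arrays.

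Nes had levels of 9.24 and 9.46 in culture, 7.65 and 7.37 after 2 weeks of CCl4 and 8.18 and 8.55 after 4 weeks, against 4.84 and 6.97 in quiescent cells. The culture arrays were the highest and the quiescent arrays the lowest, with no overlap between any of the groups. Nes rose by 3.44 ± 0.54 in culture (10.9-fold, adjusted p = 0.00173) and by 2.46 ± 0.54 after 4 weeks of CCl4 (5.52-fold, adjusted p = 0.0252). The change of 1.61 ± 0.54 after 2 weeks did not pass the test (adjusted p = 0.157). The 2 quiescent arrays differed by 2.13, at percentile 99.8 of the gaps of all genes, so the size of each change depends on which of them is used. Against quiescent replicate 2 alone the changes were 2.38 in culture, 0.54 at 2 weeks and 1.40 at 4 weeks, and against quiescent replicate 1 alone 4.51, 2.67 and 3.53. With quiescent replicate 2 left out, the 2-week change was called (adjusted p = 0.000293). The 4-week call was lost when any 1 of the 4 CCl4 arrays was left out, with adjusted p = 0.0503 without either 2-week array and 0.114 and 0.157 without 4-week replicates 1 and 2. The culture call was kept in all 8 such fits.

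Between the activated groups, Nes was 1.84 ± 0.54 higher in culture than after 2 weeks of CCl4 (adjusted p = 0.0453), beside 18.4% of all genes called in that comparison. That call rested near the threshold, and by fits added after the data were seen it was kept without either quiescent array and lost in the other 6 of 8 fits without 1 array (adjusted p up to 0.2). It was also lost when tested over all probe sets (adjusted p = 0.122). The neighbouring steps in its order of levels, culture over 4-week CCl4 (adjusted p = 0.299), 4-week over 2-week CCl4 (adjusted p = 0.778) and 2-week CCl4 over quiescent cells, did not pass the test.

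Vim had levels of 12.11 and 12.06 in culture, 12.10 and 12.17 after 2 weeks of CCl4 and 12.13 and 12.15 after 4 weeks, against 11.25 and 11.68 in quiescent cells. The activated arrays lay within a narrow band, above both quiescent arrays. Vim rose by 0.62 ± 0.16 in culture (1.54-fold, adjusted p = 0.0235) and by 0.68 ± 0.16 after 4 weeks of CCl4 (adjusted p = 0.0357), and the 2-week change of 0.68 ± 0.16 missed the threshold (adjusted p = 0.0532). Between the 3 activated groups, adjusted p ran from 0.878 to 0.998. Leaving out quiescent replicate 1 reduced the culture change to 0.40 and ended its call (adjusted p = 0.133), as did leaving out culture replicate 1 (adjusted p = 0.106) or 2 (adjusted p = 0.0878). The 4-week call was kept only without quiescent replicate 2, and over the 8 fits its adjusted p ran from 0.00995 to 0.172. The dimmer probe set of Vim gave 0.92 in culture, 0.75 after 2 weeks and 0.69 after 4 weeks of CCl4, all in the same direction.

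Synm had levels of 7.04 and 6.63 in culture, 6.23 and 6.23 after 2 weeks of CCl4 and 6.09 and 6.12 after 4 weeks, against 6.21 and 6.12 in quiescent cells. Both culture arrays lay above the other 6, none of which exceeded 6.23. Synm rose by 0.67 ± 0.16 in culture (1.59-fold, adjusted p = 0.0154), while the changes after CCl4 were 0.06 ± 0.16 at 2 weeks (adjusted p = 0.915) and -0.06 ± 0.16 at 4 weeks (adjusted p = 0.899). The 95% confidence intervals of those 2 changes were -0.30 to 0.43 and -0.43 to 0.30. Leaving out quiescent replicate 2 ended the culture call (adjusted p = 0.0595), and leaving out culture replicate 1 gave 0.46 (adjusted p = 0.107).

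Des had levels of 9.96 and 9.87 in culture, 9.75 and 9.68 after 2 weeks of CCl4 and 10.08 and 10.05 after 4 weeks, against 9.67 and 9.83 in quiescent cells. The 2-week arrays overlapped the quiescent ones, and the 4-week and culture arrays lay slightly above them. The changes were 0.17 ± 0.13 in culture (95% confidence interval -0.14 to 0.47, adjusted p = 0.465), -0.04 ± 0.13 at 2 weeks (-0.34 to 0.27, adjusted p = 0.945) and 0.31 ± 0.13 at 4 weeks (0.01 to 0.62, adjusted p = 0.225). None passed the test, and the 5 comparisons left Des uncalled with any single array left out.

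**Figure D2:**
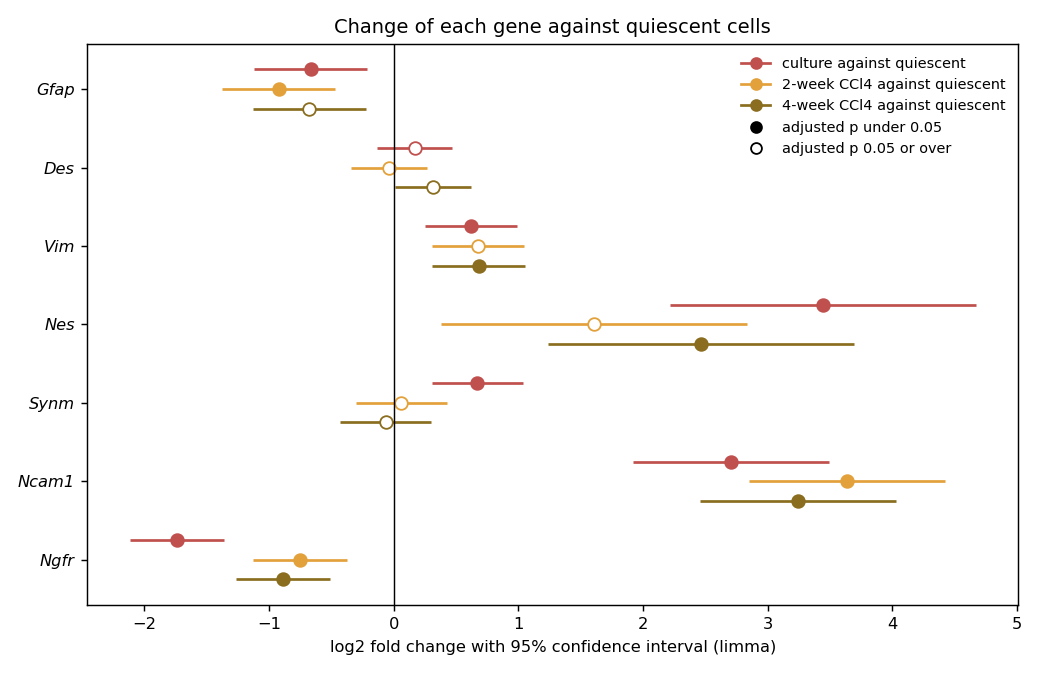
Log2 fold change against quiescent cells with its 95% confidence interval from limma, for each gene in culture, after 2 weeks and after 4 weeks of CCl4, with filled points where the adjusted p was under 0.05 and open points elsewhere. Ncam1 and Ngfr have 3 filled points each, on opposite sides of 0, and Des has none.

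Ngfr had levels of 4.45 and 4.75 in culture, 5.50 and 5.69 after 2 weeks of CCl4 and 5.38 and 5.52 after 4 weeks, against 6.22 and 6.46 in quiescent cells. The quiescent arrays were the highest and the culture arrays the lowest, below the background guide, with the CCl4 arrays between them. Ngfr fell by 1.74 ± 0.17 in culture (adjusted p = 0.000106, 3.0-fold lower when counted against the guide). The 95% confidence interval of that change was -2.12 to -1.36. Ngfr also fell by 0.75 ± 0.17 after 2 weeks of CCl4 (1.68-fold lower, adjusted p = 0.0391) and by 0.89 ± 0.17 after 4 weeks (1.85-fold lower, adjusted p = 0.0124). The culture call was kept when any single array was left out. The 2-week call was kept only without culture replicate 1 or 2, and its adjusted p ran from 0.0494 to 0.229 over the 8 fits. The 4-week call was lost without 4-week replicate 1 (adjusted p = 0.108) or 4-week replicate 2 (adjusted p = 0.0618).

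Gfap had levels of 4.63 and 5.12 in culture, 4.58 and 4.66 after 2 weeks of CCl4 and 4.72 and 5.01 after 4 weeks, against 5.69 and 5.39 in quiescent cells. Both quiescent arrays lay above the other 6, and only 4 of the 8 arrays exceeded the background guide, those being the quiescent arrays, culture replicate 2 and 4-week replicate 2. Gfap fell by 0.67 ± 0.20 in culture (1.59-fold lower, adjusted p = 0.041) and by 0.92 ± 0.20 after 2 weeks of CCl4 (adjusted p = 0.0359, 1.72-fold lower when counted against the guide). The 95% confidence interval of the 2-week change was -1.37 to -0.47. The 4-week change of -0.68 ± 0.20 did not pass the test (adjusted p = 0.0773). The culture call was lost in 6 of the 8 fits without 1 array, the exceptions being without quiescent replicate 2 and without culture replicate 2, and its adjusted p ran from 0.0232 to 0.25. It was smallest in size without culture replicate 1, at -0.42. The 2-week call was lost in 5 of the 8 fits, being kept without quiescent replicate 2, culture replicate 1 or culture replicate 2, and its adjusted p ran from 0.0315 to 0.203.

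Gfap and Ngfr are also genes of glia and of Schwann cells, which accompany the nerves of the liver. Of 13 measured glia and Schwann cell markers, 0 were called in any of the 3 comparisons with quiescent cells. Of all genes, 23.2% were called in culture, 4.77% at 2 weeks and 8.71% at 4 weeks. Median levels of the 13 markers lay between 4.22 and 4.58 on the 8 arrays. Sox10, S100b, Mbp and Erbb3, a transcription factor, a calcium-binding protein, a myelin protein and a neuregulin receptor of these cells, were among the 9 of 13 above the background guide on 0 of 8 arrays. Fabp7, Foxd3 and Egfl8 were above it on all 8, with Fabp7 between 6.12 and 7.83, and Olig1 on 1. The part of glia and Schwann cells in the Gfap and Ngfr values was not tested. The neuronal filament genes Nefl, Nefm, Ina and Prph were also above it on 0 of 8 arrays, and these and Nefh were called in none of the 3 comparisons.

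Between culture and the mean of both CCl4 times, Synm was higher and Ngfr lower in culture, 2 of the 7 genes beside 21.3% of all genes called, 12.6% higher and 8.72% lower. The Synm difference was 0.67 ± 0.14 (adjusted p = 0.00842) and was lost without culture replicate 1 (0.46, adjusted p = 0.0905). The Ngfr difference was -0.92 ± 0.14 (adjusted p = 0.00188) and was kept with any single array left out. Nes was 1.41 ± 0.47 higher in culture without passing the test (adjusted p = 0.065), and it passed without quiescent replicate 1 or 2 (adjusted p = 0.000287). Ncam1 differed by -0.73 ± 0.30 (adjusted p = 0.133), and likewise passed without either quiescent array (adjusted p = 0.0115). Between 4 and 2 weeks of CCl4, 0 of the 7 genes were called by limma, beside 0.0857% of all genes. Of the 7, Des alone had an unadjusted p under 0.05 there, with a difference of 0.35 ± 0.13 (adjusted p = 0.538).

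Among 16 other measured intermediate filament genes, 3 rose and 2 fell in culture, 1 rose after 2 weeks of CCl4, and 1 rose and 2 fell after 4 weeks, beside 23.2%, 4.77% and 8.71% of all genes called in those comparisons. Krt18, a keratin of epithelial cells such as hepatocytes, had levels of 5.27 and 4.65 in culture and 6.24 and 6.52 after 4 weeks of CCl4, against 8.50 and 7.83 in quiescent cells. It fell by 3.21 ± 0.31 in culture (adjusted p = 0.000107) and by 1.78 ± 0.31 after 4 weeks (adjusted p = 0.00875, but 0.0853 without 4-week replicate 1), and its partner Krt8 fell by 1.73 ± 0.17 and by 1.35 ± 0.17. In the same comparisons 10 of 12 hepatocyte markers fell, and the part of hepatocyte RNA in the keratin values was not tested. Krt20, another epithelial keratin, had levels of 5.66 and 6.0 in culture, against 4.00 and 3.71 in quiescent cells, a difference of 1.97 ± 0.18 (adjusted p = 8.22e-05). Its quiescent values were below the background guide, and counted against the guide it was 2.1-fold higher in culture. Krt19 and the nuclear lamin gene Lmnb1 also rose in culture, by 1.04 ± 0.18 and 0.83 ± 0.15. Lmna, which encodes the A-type nuclear lamins, had levels of 8.81 and 8.89 after 4 weeks of CCl4, against 8.07 and 8.0 in quiescent cells, and rose by 0.82 ± 0.13 (adjusted p = 0.00565), a call lost without 4-week replicate 2 (adjusted p = 0.0537). Its 2-week rise of 0.60 ± 0.13 (adjusted p = 0.0322) was lost whichever array was left out.

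Genes whose products bind or modify intermediate filaments rose in culture in most cases. Of 15 measured, 9 rose and 0 fell, beside 12.9% of all genes higher and 10.3% lower, with a median log2 fold change of 0.92 beside 0.01 over all genes. After CCl4, 2 rose at 2 weeks, beside 2.34% of all genes, and 3 at 4 weeks, beside 4.04%, with medians of -0.03 and 0.18. Pkp2, a desmosome plaque gene, had levels of 7.94 and 7.67 in culture, against 4.63 and 4.85 in quiescent cells, and rose by 3.07 ± 0.17 (8.37-fold, adjusted p = 6.71e-06). Its changes after CCl4 were -0.35 at 2 weeks and 0.18 at 4 weeks, neither called. Dmd, the dystrophin gene, rose in culture by 2.38 ± 0.16 (adjusted p = 1.5e-05), and Dst, a linker of filaments to adhesion sites, by 1.63 ± 0.17 (adjusted p = 0.000189).

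Of these binders, Dtna and Plec rose in all 3 comparisons with quiescent cells. Dtna encodes alpha-dystrobrevin, a partner of synemin and dystrophin, and had levels of 6.35 and 6.35 in culture, 5.61 and 5.99 after 2 weeks of CCl4 and 6.30 and 6.80 after 4 weeks, against 4.85 and 5.01 in quiescent cells. It rose by 1.42 ± 0.20, 0.87 ± 0.20 and 1.62 ± 0.20 in that order. Plec, the gene of plectin, which ties vimentin and desmin filaments to other structures, rose by 0.97 ± 0.14, 0.60 ± 0.14 and 0.91 ± 0.14. Both 2-week calls were near the threshold: that of Plec (adjusted p = 0.0429) was lost whichever array was left out, and that of Dtna (adjusted p = 0.0419) in 6 of 8 such fits, with adjusted p up to 0.184. The 4-week call of Plec was lost without 4-week replicate 1 (adjusted p = 0.0504). Vcl, the vinculin gene, rose by 1.26 ± 0.24 in culture (adjusted p = 0.00441) and by 1.18 ± 0.24 after 4 weeks (adjusted p = 0.0174), the second call being lost without either 4-week array (adjusted p up to 0.119).

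**Figure D3:**
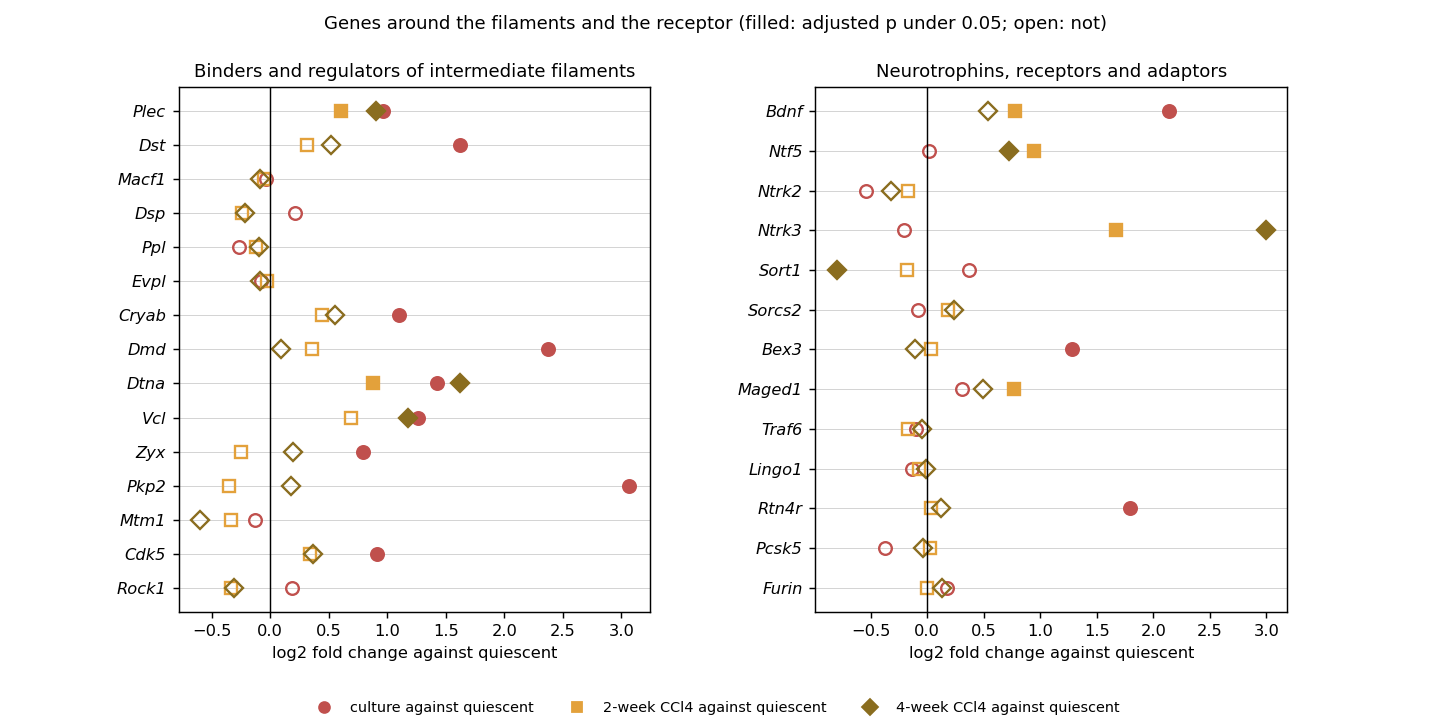
Log2 fold change against quiescent cells of 15 genes that bind or regulate intermediate filaments (left) and 13 neurotrophin genes, receptors and adaptors (right), with circles for culture, squares for 2-week CCl4 and diamonds for 4-week CCl4, filled where the adjusted p was under 0.05. Pkp2 and Dmd stand apart in culture on the left, and Ntrk3 stands apart after CCl4 on the right.

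The neurotrophins are the ligands of p75NTR, and their other receptors are the Trk kinases. Of 13 measured ligands, receptors and adaptors, 3 rose in culture, 4 rose after 2 weeks of CCl4, and 2 rose and 1 fell after 4 weeks, beside 23.2%, 4.77% and 8.71% of all genes called. Bdnf, a ligand of p75NTR and TrkB, had levels of 7.88 and 7.74 in culture, 6.28 and 6.61 after 2 weeks of CCl4 and 6.21 and 6.21 after 4 weeks, against 5.52 and 5.82 in quiescent cells. All activated arrays lay above the quiescent ones, culture highest. Bdnf rose by 2.14 ± 0.17 in culture (4.4-fold, adjusted p = 3.39e-05) and by 0.78 ± 0.17 after 2 weeks (adjusted p = 0.0347), a call lost in 7 of 8 fits without 1 array (adjusted p up to 0.152). The 4-week change was 0.54 ± 0.17 (adjusted p = 0.0896). Ntf5, another ligand, rose by 0.94 ± 0.17 and 0.73 ± 0.17 after 2 and 4 weeks of CCl4, with 1 of its 8 arrays above the background guide. Its 2-week call was lost without quiescent replicate 1 or 2-week replicate 2 (adjusted p up to 0.0736) and its 4-week call in 6 of 8 fits (adjusted p up to 0.181).

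Of the receptors, Ntrk3, the gene of TrkC, had levels of 4.93 and 4.71 in culture, 6.88 and 6.50 after 2 weeks of CCl4 and 7.80 and 8.23 after 4 weeks, against 5.27 and 4.78 in quiescent cells. The CCl4 arrays lay above all others, and the culture arrays overlapped the quiescent ones near the background guide. Ntrk3 rose by 1.67 ± 0.23 after 2 weeks of CCl4 (3.17-fold, adjusted p = 0.00547) and by 2.99 ± 0.23 after 4 weeks (7.96-fold, adjusted p = 0.000206), against a change of -0.20 ± 0.23 in culture (adjusted p = 0.625). Culture lay 2.53 ± 0.20 below the mean of both CCl4 times (adjusted p = 3.68e-05). The 2-week call was lost without 2-week replicate 1 (adjusted p = 0.061). Ntrk2, the gene of TrkB, was called in none of these comparisons and was above the guide on 0 of 8 arrays. Sort1, the gene of sortilin, a partner of p75NTR, fell by 0.80 ± 0.18 after 4 weeks (adjusted p = 0.0267). That call ended without quiescent replicate 1 or either 4-week array (adjusted p up to 0.177), and its dimmer probe set gave 0.10 ± 0.20.

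Of genes whose products act with p75NTR, Bex3 had levels of 12.08 and 12.12 in culture, against 10.63 and 11.01 in quiescent cells, and rose by 1.28 ± 0.16 (adjusted p = 0.000428). Rtn4r, the Nogo receptor gene, had levels of 5.66 and 6.11 in culture, against 4.11 and 4.08 in quiescent cells, a difference of 1.79 ± 0.21 (adjusted p = 0.000332). Its quiescent values were below the background guide, and counted against the guide it was 2.19-fold higher in culture. Neither was called after CCl4. Maged1 rose by 0.77 ± 0.16 after 2 weeks of CCl4 (adjusted p = 0.0334), a call lost in 7 of 8 fits without 1 array (adjusted p up to 0.141).

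The labelled cell type was checked against its markers, and other cell types against theirs. All 13 measured markers of quiescent stellate cells were above the background guide on the quiescent and CCl4 arrays, and 9 of them were above it on both culture arrays. In culture 12 of the 13 fell, against 5 after 2 weeks and 7 after 4 weeks of CCl4, and 1 rose at each CCl4 time. Of 13 activation markers, 10 rose and 1 fell in culture, and 13 rose at each CCl4 time. Of all genes, 12.9% rose and 10.3% fell in culture, 2.34% and 2.43% at 2 weeks, and 4.04% and 4.67% at 4 weeks. Hepatocyte markers had median levels of 4.73 and 4.78 in culture, 7.93 and 8.28 after 2 weeks of CCl4 and 6.77 and 6.55 after 4 weeks, against 10.00 and 9.18 in quiescent cells, and 10, 4 and 10 of 12 fell in those comparisons. Sinusoidal endothelial markers had medians of 5.45 and 5.0 in culture, 7.42 and 7.79 after 2 weeks and 6.53 and 7.11 after 4 weeks, against 9.63 and 8.78 in quiescent cells, and 12, 8 and 10 of 12 fell. Macrophage markers had medians of 5.69 and 6.0 in culture, 7.65 and 7.76 after 2 weeks and 5.84 and 5.52 after 4 weeks, against 7.64 and 8.55 in quiescent cells, with 1 of 12 rising and 9 falling in culture, 2 rising and 1 falling at 2 weeks and 0 rising and 9 falling at 4 weeks.

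The hepatocyte and sinusoidal endothelial medians were thus highest on the quiescent arrays, and quiescent replicate 1, the array with the lower Nes, Ncam1 and Vim, had the higher medians of both lists. The macrophage and activation marker medians were lower on that array, at 7.64 and 7.32, against 8.55 and 7.71 on quiescent replicate 2. Neither the part of other cells nor the activation of the quiescent cells in the changes of the 7 genes was tested. Vascular smooth muscle markers had medians of 7.27 and 7.06 in culture, 7.22 and 7.21 after 2 weeks and 6.95 and 7.58 after 4 weeks, against 5.80 and 5.80 in quiescent cells, with 4, 4 and 6 of 12 rising and 4, 3 and 2 falling. The smooth muscle list is not independent of the stellate lists: Myh11 and Cnn1 are also activation markers and Rgs5 is also a quiescent stellate marker. Of 11 portal fibroblast and mesothelial markers, 1 rose and 5 fell in culture, 5 rose after 2 weeks, and 4 rose and 1 fell after 4 weeks. Their part was not tested either. All 9 measured proliferation genes rose in culture, against 1 after 2 weeks and 0 after 4 weeks of CCl4. Of all genes, 12.9%, 2.34% and 4.04% rose in these comparisons and 10.3%, 2.43% and 4.67% fell.

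**Figure D4:**
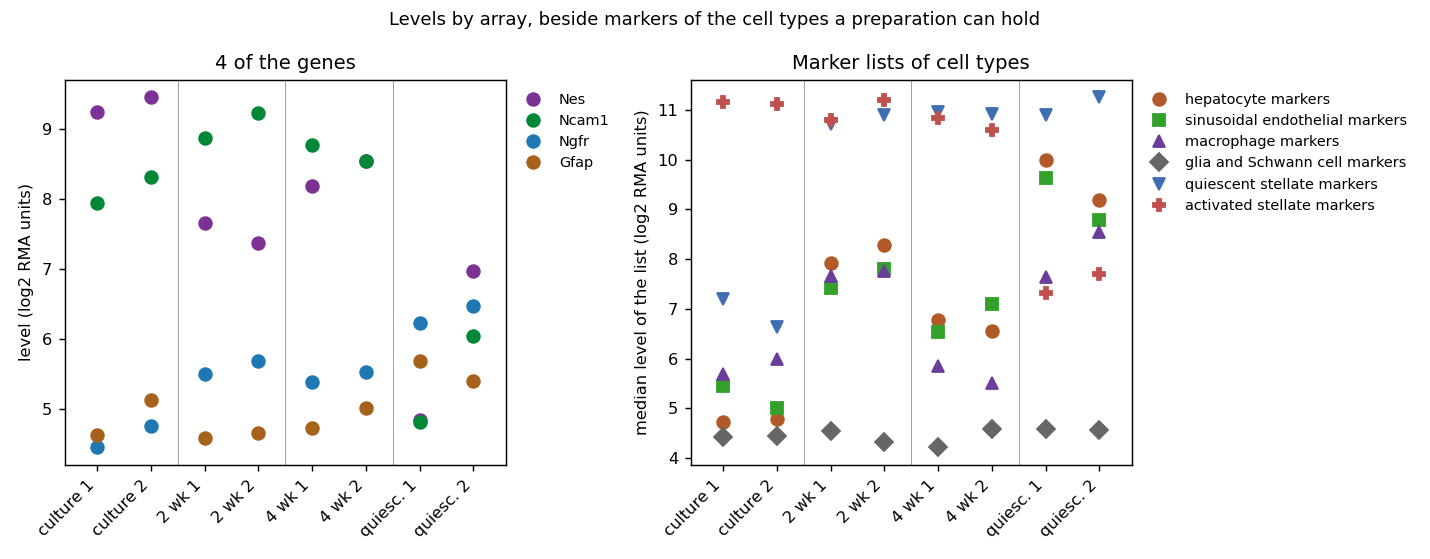
Levels of Nes, Ncam1, Ngfr and Gfap (left) and median levels of 6 marker lists (right) on each of the 8 arrays, in log2 RMA units. On quiescent replicate 1, Nes and Ncam1 are at 4.84 and 4.81 and the hepatocyte and activated stellate medians at 10.00 and 7.32. On quiescent replicate 2 they are at 6.97, 6.04, 9.18 and 7.71 in that order. The glia and Schwann cell median stays between 4.22 and 4.58 on all arrays.

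The genes whose levels ran most like each member were taken from those whose group means differed by at least 1 log2 unit, by Pearson correlation over the 8 arrays. These values describe arrays that fall into groups, and no p is given. For Ncam1 they were Rgs16 (r = 0.993), Col1a1, the main collagen gene of scar tissue (0.988), and Ppic (0.987). For Nes they were Cnn2, a calponin gene (0.994), Actr3, a subunit of the actin-branching Arp2/3 complex (0.992), and Pdlim7 (0.990). For Vim they were Serpinh1, a collagen chaperone (0.993), Fstl1 (0.983) and Tmem263 (0.976). For Synm they were Cenph (0.987), Ect2 (0.985) and Aunip (0.984), and for Ngfr Amigo1 (0.997), Dhdh (0.994) and Arap3 (0.993). Gfap had lower values, with Slc25a30 (0.951), Ece1 (0.919) and Rrm2b (0.910). With any single array left out, at least 2 of the 3 genes were shared with this set for Ncam1 and at least 1 for Nes and Ngfr, and 0 in at least 1 such fit for Gfap, Synm and Vim.

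The 250 bases before the annotated start are shown for the members that rose in culture and after 4 weeks of CCl4 (Nes and Vim) and for those that fell in culture and after 2 weeks (Gfap and Ngfr). They are RefSeq sequences of build GRCm38.p6, and 6 of the 7 members matched, without Ncam1. The windows are chr3:87970843-87971092 on the plus strand for Nes, chr2:13574061-13574310 on the plus strand for Vim, chr11:102897201-102897450 on the minus strand for Gfap and chr11:95587699-95587948 on the minus strand for Ngfr. Capitals mark matches, on either strand, to the SP1, TATA and CCAAT motifs spelled out after the sequences.
Nes: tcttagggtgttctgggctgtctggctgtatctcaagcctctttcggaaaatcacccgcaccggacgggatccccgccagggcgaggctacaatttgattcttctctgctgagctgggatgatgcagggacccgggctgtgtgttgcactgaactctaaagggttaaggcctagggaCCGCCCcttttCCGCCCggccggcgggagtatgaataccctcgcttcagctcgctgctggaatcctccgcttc
Vim: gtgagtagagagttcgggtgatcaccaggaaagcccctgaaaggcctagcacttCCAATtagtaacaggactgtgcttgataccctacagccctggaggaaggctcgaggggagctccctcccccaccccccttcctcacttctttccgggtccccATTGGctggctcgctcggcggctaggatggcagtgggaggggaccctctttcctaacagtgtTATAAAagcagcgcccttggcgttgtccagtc
Gfap: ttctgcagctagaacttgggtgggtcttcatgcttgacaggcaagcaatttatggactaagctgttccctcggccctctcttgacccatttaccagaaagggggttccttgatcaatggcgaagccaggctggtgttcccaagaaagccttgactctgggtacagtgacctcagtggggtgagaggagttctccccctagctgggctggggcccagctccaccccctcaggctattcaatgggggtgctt
Ngfr: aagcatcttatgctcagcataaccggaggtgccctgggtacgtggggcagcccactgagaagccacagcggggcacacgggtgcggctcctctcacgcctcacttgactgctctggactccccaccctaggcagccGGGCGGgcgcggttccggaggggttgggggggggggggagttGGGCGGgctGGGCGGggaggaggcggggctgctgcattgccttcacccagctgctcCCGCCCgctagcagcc
The SP1 motif was searched as GGGCGG. Nes holds it on the reverse strand at -73 and -62, counted from the start to the first base of the match, and Ngfr holds it at -114, -72 and -63 on the forward strand and at -16 on the reverse strand. It stood in 32.7% of 32851 promoter windows of the same length. Vim holds the TATA motif, searched as TATAAA, at -32, and this motif stood in 12.4% of all windows. Vim also holds the CCAAT motif, searched by the letters of its name, at -196 and -94, against 33.9% of all windows with a match. Gfap holds none of these motifs. For TEAD, the DNA-binding partner of YAP, the letters GGAATG stood in 12.6% of all windows and in 0 of the 6 member windows. For AP-1, a factor of many activated cells, the letters TGANTCA stood in 6.75% of all windows and in 0 of the 6. No searched motifs overlap in the printed windows. The windows hold 58.8% G and C for Nes, 58.4% for Vim, 55.6% for Gfap and 70.4% for Ngfr, against a median of 52.4% over all windows. A match is a description of these letters and not a site of binding.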

How the data were processed

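The authors deposited log2 expression values. Per the submitters' processing notes they come from RMA and Affymetrix Expression Console in releases not named here. Its steps subtract background, equalise the arrays' distributions and combine probes, which hides a shift common to most genes. Per the labels' protocols, RNA was preamplified before labelling. Values were used as deposited. The probe annotation gave 1 symbol to 23521 of 41345 probe sets and several to 1814, and 16010 were not named here. Symbols were checked by gene ID against RefSeq (GRCm38.p6), where 193 IDs had no row. Tests used limma 3.58.1 under R 4.3.3 (lmFit, eBayes, 4 residual and 4.75 prior degrees of freedom), two-sided, with no fold threshold. The fit was tested on simulated data with independent noise. The added shifts were larger than most changes of the 7 genes, so that test says nothing of calls near the threshold. With 2 arrays a group, the smallest p of an exact permutation test is 0.333, so none was run. No detection calls were used, and the number of arrays limits the precision. The members, marker lists and naming rule were chosen with earlier results of these data known. The rule named all 7 members, at most 4 called genes of each list in each comparison, further genes written into it (among them Plec, Sort1, Lmna and Lmnb1) and the 3 most alike genes of each called member. Cell type markers named for lying above or below the background guide, or as the few called of a list, were picked after their values were seen. Alternatives covered centring, normalization, a filter on dim genes, the choice of probe set, the variance model, the arrays in the fit, a replicate block and each array left out.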

Additional observations from a re-analysis of the deposited data

Results flagged for a closer look

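For 2 of the 7 genes the change in culture differed from the change after CCl4 by a test of the difference itself, beside 21.3% of all genes, a share near that of the 7. Synm was 0.67 higher in culture than in the mean of both CCl4 times (SE 0.14, adjusted p = 0.00842, limma), in both culture arrays against all 4 CCl4 arrays, a call lost without culture replicate 1 (adjusted p = 0.0905). Ngfr differed by -0.92 (SE 0.14, adjusted p = 0.00188), in both culture arrays against all 4 CCl4 arrays.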

How the results depend on the processing

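Over 19 alternatives, 577 of 660 values for the 7 genes kept their direction and their side of the threshold, 54 lost a call, 13 gained a call and 16 changed sign, these last for changes that were not called. After a second quantile normalization, Des in culture against CCl4 was -0.04, Synm at 4 weeks 0.016 and Vim at 4 against 2 weeks -0.048. Vim at 4 against 2 weeks was -0.0026 after median centring, -0.012 after centring on the 75th percentile, -0.026 with the mean of its probe sets and -0.058 with the dimmer set, and in culture against CCl4 it was 0.0155 after median centring, 0.068 with the mean of its sets and 0.19 with the dimmer set. With 1 array left out, the values ran from -0.11 to 0.044 for Des at 2 weeks, -0.021 to 0.077 for Des in culture against CCl4, -0.12 to 0.38 for Gfap in culture against CCl4 and -0.028 to 0.039 for Vim at 4 against 2 weeks. The cause was not tested.

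With only the groups compared in the fit, the count of all genes called was 372 at 2 weeks, 1205 at 4 weeks and 82 at 4 against 2 weeks, and of the 7 genes 3 in culture, 1 at 2 weeks, 2 at 4 weeks and 4 in culture against CCl4. Tested over all probe sets, these were 441 at 2 weeks and 0 at 4 against 2 weeks, with 1 of the 7 genes at 2 weeks and 2 at 4 weeks. The 4 against 2 weeks count was 32 after centring on the 75th percentile. With 1 array left out, the counts of all genes ran from 3505 to 4962 in culture, 260 to 1430 at 2 weeks, 652 to 2113 at 4 weeks, 0 to 85 at 4 against 2 weeks and 2846 to 5225 in culture against CCl4. Of the 7 genes they ran from 3 to 5, 1 to 4, 1 to 4, 0 to 0 and 1 to 4 in the same order.

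Nes in culture against 2-week CCl4, added after the data were seen, lost its call after a second quantile normalization (1.72, adjusted p = 0.0627), with trend and robust options (adjusted p = 0.0851) and over all probe sets (adjusted p = 0.122), and ran from 1.69 to 1.98 with 1 array left out.

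Same-numbered arrays did not deviate together (correlations from -0.042 to 0.0737), so the numbers were not taken as pairs. The replicate block gave 5042, 906, 1741, 9 and 4624 genes in the same order, and the counts of the 7 genes stayed at 6, 3, 4, 0 and 2. With 2 arrays a group, calls near the threshold are fragile, and Gfap and Ngfr in culture lay near the background of the array.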
